A study of Homo sapiens with 18 samples.

Results

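The mRNAs described here encode poly(A)-binding proteins and the proteins that bind them, 6 genes of the 13661 in the deposited table, found by their symbols PABPC1, PABPC4, PABPN1, PAIP1, PAIP2 and PAIP2B. All 6 passed the filter on low counts, which kept 12720 genes. The samples were the heavy polysome, light polysome and monosome fractions of HEK293 cells that had received DMSO vehicle for 12 h, with 3 biological replicates of each fraction. HEK293 is an established human embryonic kidney line, and polysome profiling sorts the mRNAs of a cell lysate on a sucrose gradient by how many ribosomes are bound. The series also has 9 libraries from cells given 100 µM minocycline for 12 h, which are not analysed here. Reads recovered from the deposited values and summed over the 13661 genes ran from 13447139 to 24441159 in the 9 vehicle libraries. Reads of the neuronal genes UCHL1, NEFL and NEFM, which this line is known to express, were present in all 9 (at least 365, 419 and 590 reads). Reads of STMN1 (993 to 19293 per library) and PAX2 (18 to 231 per library) were also present in all 9. Light polysome library 2 stood apart: across genes its log2 values correlated on average at r = 0.894 with the other light polysome libraries and at r = 0.940 with the heavy ones, while light libraries 1 and 3 correlated at r = 0.985.

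Cytoplasmic poly(A)-binding protein coats the tail of mRNAs and binds the initiation factor eIF4G at the cap, so that both ends of the message are held together and initiation is favoured. PAIP1 binds the same protein and stimulates translation, whereas PAIP2 and PAIP2B displace it from the tail and compete with its partners. PABPN1 acts in the nucleus, where it sets the length of the new tail. The mRNA of PABPC1 belongs to the TOP class, messages that begin with a C and a run of pyrimidines and whose translation depends on mTOR, and PABPC1 protein is also known to bind an A-rich stretch of its own leader.

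Transcript starts are shown because that first C and the pyrimidines after it define the TOP class. Starts annotated by RefSeq (GRCh38.p14) are shown for 4 of the 6 genes, and none is shown for PABPC1 or PABPC4. Each line gives 10 bases before and 20 bases from the annotated start, with the first 5 transcribed bases in capitals, and EEF1A1, an elongation factor of the TOP class, is added to show such a start.
PABPN1 (chr14:23321447-23321476, plus strand): ggcgggccccAGTCTgagcggcgatggcgg
PABPN1 (chr14:23321996-23322025, plus strand): tgattcgggcGTCACggttgcctagtgttg
PAIP1 (chr5:43557392-43557421, minus strand): ccgtgtttttATTTCccgggcgtcaactgt
PAIP1 (chr5:43557058-43557087, minus strand): ggggagaactGGAAAgccgagggtagccga
PAIP2 (chr5:139342464-139342493, plus strand): cggagggactGGCGGgctcttggcgtcttg
PAIP2B (chr2:71227084-71227113, minus strand): gcgaggaggcAGTGTgcagtaagagataac
EEF1A1 (chr6:73521013-73521042, minus strand): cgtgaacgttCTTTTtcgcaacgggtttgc
None of the 6 starts shown for PABPN1, PAIP1, PAIP2 and PAIP2B had a C followed by 4 pyrimidines, read on the transcribed strand, while the EEF1A1 start did. Such a start was present at 785 of the 15358 annotated starts of the genes kept (5.11%). An annotated start need not be the start these cells use.

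Values are given as the share of a gene's normalized count that lay in each fraction of a gradient, and as the mean ribosome load (MRL), the shares weighted by 6 for heavy polysomes, 2.5 for light polysomes and 1 for monosomes. Each library was scaled by the authors to the same typical gene, so shares and loads rank genes against each other and do not say how much RNA a fraction held. The median gene had an MRL of 3.17 ± 0.01 (SD, n = 3 gradients). In a bulk lysate, cells that differ in loading and mRNAs that differ within each cell cannot be told apart.

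PABPC1, the main cytoplasmic poly(A)-binding protein (ENSG00000070756, GRCh38 chromosome 8, 100685816 to 100722809, minus strand), lay mostly in monosomes. Its share in heavy polysomes was 14.4%, 7.78% and 12.7% in replicates 1, 2 and 3. Its share in light polysomes was 13.8%, 17.2% and 13.7%, and its share in monosomes 71.9%, 75.0% and 73.6%. The monosome share was the largest in all 3 gradients, and 97.3% of the genes kept had a lower mean monosome share. Its normalized count was 9083, 7120 and 9818 in heavy polysomes, 8711, 15725 and 10597 in light polysomes, and 45457, 68646 and 56793 in monosomes. The MRL of PABPC1 was 1.92, 1.65 and 1.84 in the 3 gradients, a mean of 1.80 ± 0.14 (SD, n = 3), and ranked 12165th from the top of 12720 genes. Among the 2964 genes of like coding length (the shorter at least 0.8 times the longer; PABPC1 has 1908 nt), 2.80% had a lower MRL than PABPC1. GENCODE release 29 lists 13 pseudogenes named after PABPC1, and how the authors' counting treated reads shared with such copies is not given in the sources used here, so its exact level is uncertain.

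PABPC4, the inducible cytoplasmic paralog (ENSG00000090621, chromosome 1, 39560816 to 39576790, minus strand), was spread over the fractions and varied between gradients. Its share in heavy polysomes was 43.0%, 16.7% and 28.6%, its share in light polysomes 24.4%, 29.1% and 22.7%, and its share in monosomes 32.6%, 54.2% and 48.8%. Heavy polysomes held the largest share in replicate 1 and monosomes in replicates 2 and 3. Heavy shares overlapped both light and monosome shares, while light shares lay below monosome shares in each replicate. Its MRL was 3.52, 2.27 and 2.77, a mean of 2.85 ± 0.63 (SD, n = 3), the widest spread of the 6 genes. PABPC1 lay below PABPC4 in each gradient, by -1.59, -0.62 and -0.93 MRL units (mean -1.05 ± 0.50). With 3 gradients the exact two-sided sign-flip permutation test cannot go below p = 0.25, the value it gave here (0.375 adjusted over the 3 pairs compared).

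PABPN1, the nuclear poly(A)-binding protein (ENSG00000100836, chromosome 14, 23321289 to 23326185, plus strand), had no stable leading fraction. Its share was 41.2%, 15.6% and 32.1% in heavy polysomes, 40.4%, 64.3% and 32.2% in light polysomes, and 18.4%, 20.1% and 35.7% in monosomes. Each replicate was led by another fraction: heavy in replicate 1, light in replicate 2 and monosome in replicate 3. The value of 64.3% comes from light polysome library 2, the library that stood apart. Its MRL was 3.67, 2.74 and 3.09, a mean of 3.17 ± 0.47 (SD, n = 3), which is close to the median gene. The annotated gene BCL2L2-PABPN1 overlaps PABPN1 on the same strand, and reads from that read-through gene and from PABPN1 cannot be told apart here.

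PAIP1, the activator among the PABP-interacting proteins (ENSG00000172239, chromosome 5, 43526267 to 43557758, minus strand), was spread over the fractions and varied between gradients. Its share was 29.2%, 31.4% and 39.6% in heavy polysomes, 45.2%, 25.8% and 42.4% in light polysomes, and 25.6%, 42.8% and 18.04% in monosomes. Light polysomes led in replicates 1 and 3 and monosomes in replicate 2. Its MRL was 3.14, 2.96 and 3.61, a mean of 3.24 ± 0.34 (SD, n = 3), the highest mean of the 6 genes. GENCODE release 29 lists 1 pseudogene named after PAIP1.

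PAIP2, a translational repressor that binds PABP (ENSG00000120727, chromosome 5, 139341587 to 139369720, plus strand), was concentrated in light polysomes. Its share was 11.3%, 20.1% and 9.08% in heavy polysomes, 67.2%, 57.5% and 62.4% in light polysomes, and 21.5%, 22.5% and 28.5% in monosomes. The light share was the highest in all 3 gradients. Its normalized count was 988, 1356 and 1126 in heavy polysomes, 5859, 3886 and 7737 in light polysomes, and 1876, 1521 and 3531 in monosomes. Its mean light share of 62.4% ± 4.86 (SD, n = 3) was exceeded by 38 of the 12720 genes kept. The coding sequence of PAIP2 is 381 nt, and 97.8% of the 646 genes of like coding length had a lower light share, with a median of 39.6%. Its MRL was 2.57, 2.86 and 2.39, a mean of 2.61 ± 0.24, against a median of 2.35 for those genes. SLC23A1 overlaps PAIP2 on the opposite strand, and whether strand was used in counting is not given in the sources used here.

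PAIP2B, the close relative of PAIP2 (ENSG00000124374, chromosome 2, 71182739 to 71227083, minus strand), has a coding length of 369 nt and lay further toward monosomes. Its share was 14.5%, 22.6% and 15.9% in heavy polysomes, 36.2%, 32.1% and 44.7% in light polysomes, and 49.3%, 45.2% and 39.4% in monosomes. Heavy polysomes held the least in each gradient, and light polysomes and monosomes overlapped. It was the least read of the 6 genes, with between 166 and 715 reads per library, against at least 562 for the other 5. Its MRL was 2.27, 2.61 and 2.47, a mean of 2.45 ± 0.17 (SD, n = 3), and its mean light share of 37.7% ± 6.43 was near the median of 39.8% among the 594 genes of like coding length. Those genes had a median MRL of 2.33, and 57.9% of them had a lower MRL than PAIP2B.

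PAIP2 minus PAIP2B gave MRL differences of 0.31, 0.25 and -0.07, a mean of 0.16 ± 0.21 (exact two-sided sign-flip permutation test, p = 0.5, also 0.5 adjusted over the 3 pairs). PAIP1 minus PAIP2 gave 0.56, 0.09 and 1.22, a mean of 0.63 ± 0.57 (p = 0.25 by the same exact test, 0.375 adjusted). The load of PAIP1 mRNA was thus above that of PAIP2 mRNA in 3 of 3 gradients, in a design too small to pass a threshold of 0.05. These mRNAs differ in coding length (1437 and 381 nt). Among genes of like coding length, 46.1% had a lower MRL than PAIP1 and 65.8% a lower MRL than PAIP2.

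**Figure D1:**
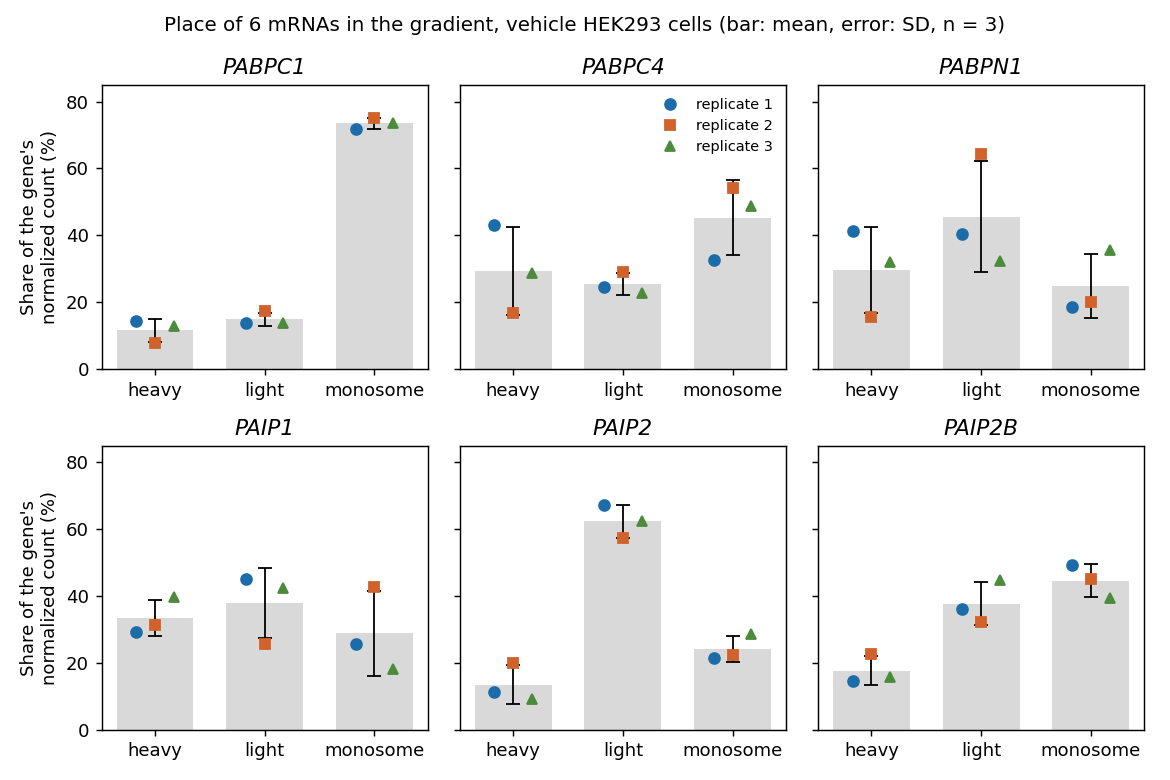
Share of each gene's normalized count (percent, y axis) in heavy polysomes, light polysomes and monosomes of vehicle HEK293 cells; points are the 3 replicates, bars their mean and error bars the SD. PABPC1 stands at 71.9% to 75.0% in monosomes and PAIP2 at 57.5% to 67.2% in light polysomes, while PABPN1 is led by another fraction in each replicate.

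Per kilobase of transcript, the levels of the 6 genes spanned a wide range in each fraction. In heavy polysomes, normalized counts per kilobase were 2489 ± 400.2 for PABPC1, 2310 ± 1304 for PABPN1, 1508 ± 770.4 for PABPC4, 594 ± 121 for PAIP1, 504 ± 81.1 for PAIP2 and 28.8 ± 6.56 for PAIP2B (SD, n = 3). In light polysomes they were 3369 ± 1034 for PABPN1, 3351 ± 1041 for PABPC1, 2537 ± 838 for PAIP2, 1281 ± 180.01 for PABPC4, 669 ± 183 for PAIP1 and 62.8 ± 19.4 for PAIP2B. In monosomes they were 16346 ± 3327 for PABPC1, 2255 ± 450.4 for PABPC4, 1823 ± 601 for PABPN1, 1005 ± 467 for PAIP2, 509 ± 222 for PAIP1 and 72.6 ± 3.09 for PAIP2B. PABPC1 had the highest mean in heavy polysomes and monosomes and PABPN1 in light polysomes, and PAIP2B was last in all 3 fractions. PABPC1 and PABPN1 in heavy and light polysomes, PABPN1 and PABPC4 in heavy polysomes and monosomes, and PAIP1 and PAIP2 in heavy polysomes did not differ beyond their spread. The same held for PABPC1 and PABPC4 in heavy polysomes, and for PAIP2 beside PABPC1 and PABPN1 in light polysomes. In monosomes it held for PAIP2 beside PABPN1 and PAIP1.

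**Figure D2:**
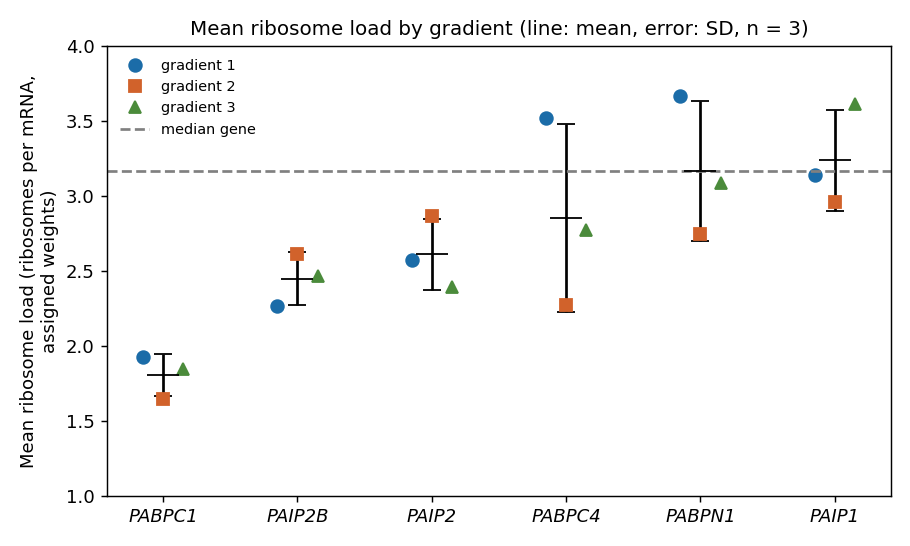
Mean ribosome load (y axis, ribosomes per mRNA under the assigned weights) of the 6 genes in each of 3 gradients, ordered by their mean; short lines are means, error bars the SD and the dashed line the median gene at 3.17. PABPC1 lies below the other 5 genes, and PABPC4 and PABPN1 spread widely between gradients.

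The first test asked which of the 6 mRNAs carried a load unlike that of the median gene. PABPC1, PAIP2 and PAIP2B had a lower MRL, and PABPC4, PABPN1 and PAIP1 did not pass. On the log2 scale PABPC1 lay at -0.81 (SE 0.13; limma, adjusted p = 0.00109; below in 3 of 3 gradients), PAIP2B at -0.37 (SE 0.08, adjusted p = 0.00515, 3 of 3) and PAIP2 at -0.28 (SE 0.09, adjusted p = 0.0318, 3 of 3). The 95% intervals of the others were -0.45 to 0.10 for PABPC4, -0.25 to 0.23 for PABPN1 and -0.18 to 0.23 for PAIP1. The 3 of 6 that were lower stand against 26.0% lower and 22.2% higher among all 12720 genes (48.1% in either direction). Centred on the mean gene, the split over all genes was 3654 higher of 6513 called, against 2821 of 6122, and PAIP2 was not called (-0.22, adjusted p = 0.0621). PAIP2 also failed without replicate 1 (adjusted p = 0.269) or 3 (0.254), and PAIP2B without replicate 1 (0.103). Tested as the share in light and heavy polysomes together, PAIP2 lay on the other side of the median gene, 6.82 percentage points above it, and did not pass (adjusted p = 0.203).

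Heavy polysomes were next set against monosomes. PABPC1 fell by 2.71 on the log2(normalized count + 1) scale in heavy polysomes relative to monosomes (SE 0.47, adjusted p = 0.000528 by limma, 3 of 3 replicates), and PAIP2B fell by 1.36 (SE 0.32, adjusted p = 0.00353, 3 of 3). PAIP2 had -0.91 (SE 0.41, adjusted p = 0.0764), PABPC4 -0.69, PABPN1 0.21 and PAIP1 0.29, and none of these passed. The 2 of 6 genes that were lower stand against 24.4% of all genes lower and 24.7% higher (49.1% in either direction). The call for PAIP2 turned on replicate 2: without light polysome library 2, which feeds the shared estimate of spread, its adjusted p was 0.0335, and without replicate 2 it had -1.29 (adjusted p = 0.00279). DESeq2 also called it (-1.05, adjusted p = 0.0205) and edgeR did not (adjusted p = 0.0615). Without replicate 2 PAIP1 was called higher at 0.66 (adjusted p = 0.0454), and without replicate 1 PAIP2B did not pass (-1.15, adjusted p = 0.111).

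In light polysomes against monosomes, 1 gene was higher and 1 lower. PAIP2 rose by 1.38 in light polysomes on the log2 scale (SE 0.41; limma, adjusted p = 0.0305; above in 3 of 3 replicates), and PABPC1 fell by 2.31 (SE 0.47, adjusted p = 0.00427, lower in 3 of 3). PABPN1 had 0.89, PAIP1 0.44, PAIP2B -0.25 and PABPC4 -0.81, none past the threshold. Over all genes, 8.47% were higher and 10.2% lower (18.7% in either direction). The calls of PABPC1 and PAIP2 were lost without replicate 1 (adjusted p = 0.167 and 0.325) and without replicate 3 (0.0851 and 0.117), and the values stayed between -2.55 and -2.25 for PABPC1 and between 1.24 and 1.64 for PAIP2 in these fits and those without replicate 2 or light polysome library 2. Without replicate 2, PAIP1 was called higher at 1.02 (adjusted p = 0.00953).

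In heavy against light polysomes, PAIP2 and PAIP2B were lower and the other 4 genes did not pass. PAIP2 fell by 2.29 on the log2 scale in heavy polysomes relative to light ones (SE 0.41, adjusted p = 0.00682 by limma, 3 of 3 replicates), and PAIP2B fell by 1.10 (SE 0.32, adjusted p = 0.0195, 3 of 3). PABPC1 had -0.40 with a 95% interval of -1.40 to 0.60, PABPN1 -0.67, PAIP1 -0.15 and PABPC4 0.12. Over all genes, 17.5% were lower and 14.7% higher (32.2% in either direction). The calls in this contrast changed with the replicates used: without replicate 1 limma called 0 of 12720 genes (2490 at an unadjusted p under 0.05) and without replicate 3 it called 1 (3100 unadjusted), and without replicate 2 it called 7651. Without replicates 1 and 3 in turn, PAIP2 had -2.15 and -2.04 (adjusted p = 0.146 and 0.0684) and PAIP2B -0.997 and -0.912 (0.296 and 0.265), close in size to the values above but not called.

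**Figure D3:**
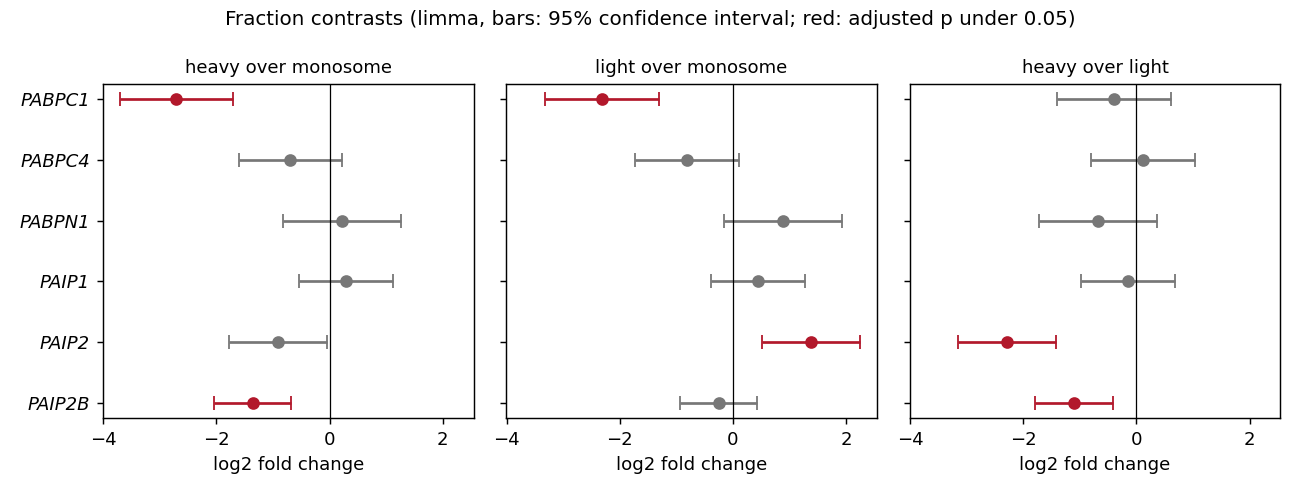
Log2 fold change (x axis) of the 6 genes for heavy polysomes over monosomes, light polysomes over monosomes and heavy over light polysomes, from limma on 9 libraries; bars are 95% confidence intervals and red marks an adjusted p under 0.05. PABPC1 is low against monosomes in both polysome fractions, and PAIP2 is high in light polysomes at 1.38 and low in heavy against light at -2.29.

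These directions are relative to the typical gene. When libraries were scaled to their total reads instead, the median of all genes lay at 1.39 for heavy over monosome, 1.22 for light over monosome and 0.13 for heavy over light on the log2 scale, against 0.13, 0.04 and 0.05 with the authors' scaling, and 7735 of 8837 genes called in heavy over monosome and 7390 of 7756 in light over monosome were higher, against 3145 of 6246 and 1077 of 2380 with the authors' scaling. Relative to that median, PABPC1 had -2.82 and PAIP2B -1.47 in heavy over monosome, and PAIP2 had 1.35 in light over monosome. On that scaling without recentring, PABPC1 was still lower in heavy polysomes than in monosomes (-1.43, adjusted p = 0.0103 by limma) and PAIP2B was not called (-0.08, adjusted p = 0.859). PABPN1 (1.496, adjusted p = 0.012) and PAIP1 (1.57, adjusted p = 0.00199) were called higher there, at 0.10 and 0.18 relative to the median. In light over monosome on that scaling PABPN1 (2.09, adjusted p = 0.0021), PAIP1 (1.64, adjusted p = 0.00239) and PAIP2B (0.95, adjusted p = 0.0334) were called higher, at 0.86, 0.42 and -0.28 relative to the median.

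Coding length goes with load across all genes, and the 6 genes fall differently beside it. Genes with 301 to 600 nt of coding sequence had a median MRL of 2.53 (1262 genes), those with 601 to 1200 nt 3.14 (3615 genes) and those with 1201 to 2400 nt 3.32 (4771 genes). PAIP2 and PAIP2B, at 381 and 369 nt, and PABPN1, at 918 nt, lay within the quartiles of their class. PAIP1, at 1437 nt, and PABPC4, at 1980 nt, also did, whereas PABPC1 at 1908 nt lay below the lower quartile of 2.73. For the mean share in light polysomes, PAIP2 (62.4%), PABPN1 (45.6%) and PAIP1 (37.8%) lay above the upper quartile of their classes (46.3%, 39.1% and 34.9%). PABPN1 had 40.4%, 64.3% and 32.2% in replicates 1, 2 and 3, so its mean leans on the light polysome library that stood apart. PAIP1 had 25.8% in replicate 2, below the upper quartile of its class. PABPC1 (14.9%) lay below the lower quartile of 22.2%, and PABPC4 and PAIP2B lay within the quartiles.

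**Figure D4:**
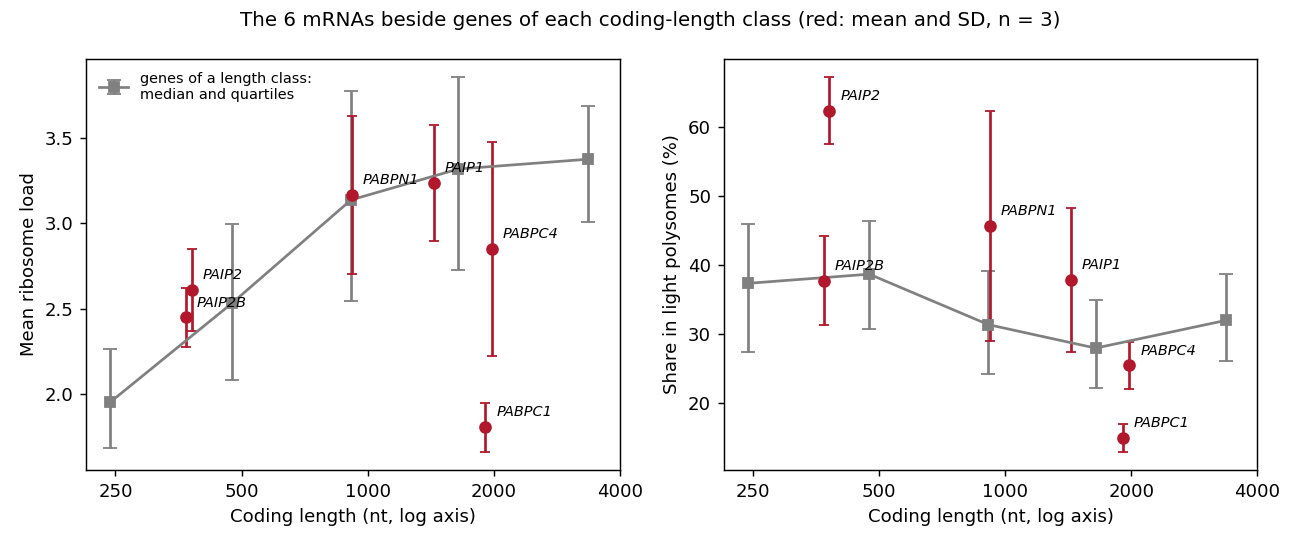
Mean ribosome load (left) and share in light polysomes in percent (right) against coding length in nt on a log axis; grey squares and bars are the median and quartiles of genes in each of 5 length classes, drawn at the median length of the class, and red points are the 6 genes with their SD (n = 3 gradients). PABPC1 lies below the lower quartile of its length class in load, and PAIP2, PABPN1 and PAIP1 lie above the upper quartile of their length class in mean light share. The PABPN1 mean leans on 64.3% in replicate 2, against 32.2% in replicate 3.

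Other poly(A)-binding protein genes in the table were PABPC1L, PABPC3 and PABPC4L, and all 3 lay mostly in monosomes. PABPC1L had 3.65% ± 0.997 in heavy polysomes and 87.05% ± 4.11 in monosomes (SD, n = 3), PABPC4L had 12.1% ± 1.30 and 81.2% ± 3.23, and PABPC3 had 12.2% ± 8.54 and 77.5% ± 14.4. Each was lower in heavy polysomes than in monosomes, with log2 fold changes of -4.53, -2.74 and -2.96 for PABPC1L, PABPC4L and PABPC3, where 24.4% of all genes were lower (adjusted p = 2.44e-05, 4.5e-05 and 0.000403 by limma). PABPC3 is an intronless copy of PABPC1 with between 34 and 233 reads per library, so its reads may include some from PABPC1. PABPC1L had between 19 and 351 reads per library and PABPC4L between 164 and 1109, so the shares of PABPC1L also rest on few reads.

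Other TOP mRNAs, the class to which PABPC1 belongs, were mostly low in load. The 22 of 23 listed genes that were kept had a median MRL of 2.11 ± 0.34 (SD, n = 3 gradients), and 15 of the 22 were lower than the median gene, 0 higher, against 26.0% lower among all genes (limma). Against monosomes, 15 of 22 were lower in heavy polysomes (24.4% of all genes) and 14 of 22 in light polysomes (10.2% of all genes). In heavy against light, 0 of 22 passed in limma, where 32.2% of all genes did. An unadjusted p under 0.05 was found there for 1 of the 22 genes, edgeR called 0 and DESeq2 3, and limma called 8 (2 of them higher) without replicate 2 and 3 without light polysome library 2. TPT1, for translationally controlled tumor protein, had the lowest MRL of the list at 1.37 ± 0.31 and EEF1A1 had 1.54 ± 0.15, while the intermediate filament gene VIM, at 3.20 ± 0.35, and the nucleolar protein gene NPM1, at 3.42 ± 0.87, were the highest. Without replicate 1, 6 of 22 passed for MRL, 7 of 22 in heavy over monosome and 3 of 22 in light over monosome, and without replicate 3, 7 of 22 passed in light over monosome.

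Initiation factors and relatives, listed around eIF4G, which PABP binds, showed no common direction. Not every gene of the list, such as EIF4G2 or EIF4E2, is known to act with PABP. Of 10 genes, 1 had a higher MRL than the median gene, 4 a lower one and 5 did not pass, against 22.2% higher and 26.0% lower among all genes, with a list median of 3.05 ± 0.28. Without replicate 1, 2 passed, both lower, and centred on the mean gene 7 passed, 3 of them higher. EIF4G1, the scaffold that PABP binds, had 3.62 ± 0.65 and did not pass (adjusted p = 0.174 by limma). EIF4H, a cofactor of the helicase, had 4.25 ± 0.41 and was higher, and the helicase EIF4A1, at 3.91 ± 0.57, did not pass. EIF4B, another cofactor, had 1.88 ± 0.09 and the cap-binding relative EIF4E2 had 2.35 ± 0.32, both lower. EIF4B and EIF4A2 are also on the TOP list.

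Genes of proteins that bind PABP through a PAM2 peptide, as the PAIPs do, mostly did not pass for MRL. Of 17 genes, 2 had a higher MRL, 2 a lower one and 13 did not pass, against 22.2% higher and 26.0% lower among all genes, with a list median of 3.35 ± 0.16. LARP4B (4.06 ± 0.09) and LARP1 (3.99 ± 0.38), which bind RNA and PABP, were higher, and the release factor GSPT2 (2.13 ± 0.14) and the antiproliferative adaptor TOB2 (2.35 ± 0.17) were lower. GSPT1, the main form of release factor eRF3, had 3.60 ± 0.19 and did not pass (adjusted p = 0.114 by limma). Without replicate 1, 2 of 17 passed, both lower. Without replicate 2, 9 of 17 passed, 6 of them higher, and centred on the mean gene 8 of 17 passed, 6 of them higher. In heavy over monosome 5 of 17 were higher and 2 lower, against 24.7% and 24.4% of all genes. In light over monosome 3 of 17 were higher and 2 lower, against 8.47% and 10.2% of all genes. With a replicate left out, 3 to 10 of 17 passed in the former contrast and 3 to 9 in the latter.

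Genes of nuclear cleavage and polyadenylation, the step in which PABPN1 acts, spread to both sides. Of 20 genes, 4 had a higher MRL, 3 a lower one and 13 did not pass, against 22.2% higher and 26.0% lower among all genes, with a list median of 3.43 ± 0.21. Without replicate 1, 2 passed, and without replicate 2, 13 passed. FIP1L1 (4.49 ± 0.34) and CLP1 (4.11 ± 0.12), both of the cleavage machinery, were the highest, and CSTF2T (2.11 ± 0.12) and PCF11 (2.37 ± 0.42) the lowest. All 4 passed. Centred on the mean gene, 13 of 20 passed, 10 of them higher. In heavy against light polysomes 8 of 20 were higher and 2 lower, against 14.7% and 17.5% of all genes. Leave-one-out fits called between 0 and 17 of the 20 in that contrast, none without replicate 1 or 3 and 17 without replicate 2.

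**Figure D5:**
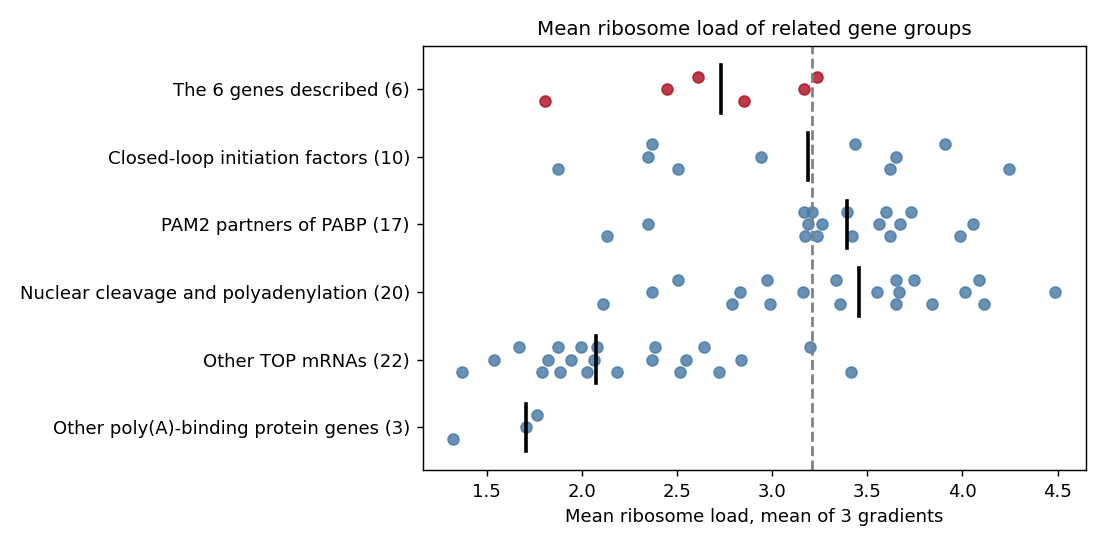
Mean ribosome load (x axis, mean of 3 gradients) of the 6 genes and of the related gene lists, with the number of genes kept in brackets; each point is a gene, black bars are medians of the points and the dashed line is the median of all genes kept. PABPC1 at 1.80 lies among the TOP mRNAs, whose points run from 1.37 to 3.42.

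Genes with the most similar profile were found from the root mean square difference of the 9 shares (3 fractions in 3 gradients), among genes with at least 100 reads per library on average. For PABPC1 they were PPP1R3E (2.81 percentage points), ZNF551 (3.22) and THTPA (3.32). For PABPC4 they were MTA1 (1.90), SIRT5 (4.36) and TMEM45A (4.77), and MTA1 had MRLs of 3.33, 2.32 and 2.81 beside the 3.52, 2.27 and 2.77 of PABPC4. PABPN1 was nearest to CITED1 (4.15), ARPC4 (4.17) and TMEM231 (4.58), and PAIP1 to LZTS3 (2.79), ADGRA2 (3.15) and LINGO1 (3.20). PAIP2 was nearest to GMCL1 (1.80), SHISA3 (2.47) and ZNF44 (2.85), and PAIP2B to CENATAC (2.34), ZNF197 (2.53) and ETAA1 (2.90). No member was among the nearest genes of another, and the closest pair of members, PAIP1 and PAIP2B, differed by 14.9 points.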

How the data were processed

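Per the submitters' processing notes, featureCounts assigned reads to genes on GRCh38; the sources used here give neither the aligner nor its options nor strand use. The authors deposited, as signal, each library's counts scaled by its size factor. Dividing by each column's smallest value gave whole reads for 100% of values (tolerance 0.01 reads), and edgeR on these reads called 6257 genes in heavy over monosome. The authors' deposited percent is a gene's share of its summed normalized count over the 3 fractions of a replicate, and the deposited MRL score was recomputed to within 7.83e-10 from mean shares and weights 1, 2.5 and 6. The 233 rows with no symbol stayed in the fits. Depth was 13447139 to 24441159 reads per library; errors given are the spread between replicates.

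Genes were kept if they averaged 10 or more recovered reads per library and had reads in each gradient (12720 of 13661). Fractions were compared with limma 3.58.1 (R 4.3.3, trend) on log2(normalized count + 1), all 9 libraries in 1 fit with fraction as the only term, two-sided, with Benjamini-Hochberg adjustment over all genes and a threshold of 0.05. Fold changes on this scale understate the change of low genes. For MRL, limma tested log2 MRL minus the median gene of each gradient against 0, with the variance trend on mean abundance. Both tests were checked on simulated data without replicate effects or a library that stood apart, so the check does not cover these features. Alternatives were edgeR 4.0.16, DESeq2 1.42.0, a pseudocount of 5, no filter, a replicate block, other scalings and weights, and replicates left out.

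Replicate numbers are the batch in the labels, so they pair the fractions; the correlation of same-numbered libraries' deviations from their fraction means ran from -0.54 to 0.39 over the 9 pairs. The genes described, the lists and the tests were chosen with earlier results of these data known. The rule named all 6 genes, the 2 highest and 2 lowest of each list by MRL, EIF4G1 and GSPT1, and the 3 genes most alike to each of the 6; the genes of the other poly(A)-binding protein list are all named. Gene models came from GENCODE release 29, which matched 13658 of 13661 identifiers, and the coding length is that of the transcript with the longest coding sequence. Transcript starts came from RefSeq (GRCh38.p14). One sequence is not reported here. The 9 minocycline libraries are not analysed here.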

Additional observations from a re-analysis of the deposited data

How the results depend on the processing

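Over the alternatives run for the 6 genes, 189 of 228 values kept their direction and side of the threshold, 14 lost a call, 9 gained one and 16 changed sign. Some of these could not change direction. The replicate block and the fit with no filter leave the log2 values of the fraction contrasts as they are. Leaving out light polysome library 2 does the same for heavy over monosome. With the replicate block, heavy over monosome called 6274 genes in place of 6246, and no call of the 6 genes or count by over 1.5 times changed in any contrast; MRL, with 1 value per gradient, has no block. PABPC1 kept its lower call in heavy over monosome and in MRL under every alternative run. Leaving out a replicate gave 3137 to 7814 genes called in heavy over monosome, 562 to 4507 in light over monosome, 0 to 7651 in heavy over light and 3040 to 7675 for MRL; fewer libraries were tested in each. Without light polysome library 2, heavy over light called 6423 genes. Scaled to library totals, light over monosome called 7756. Tested as the share in polysomes, 3895 genes differed from the median gene. Scaling to library totals moved the median of all genes, and with it PABPC4 to 0.59 and PAIP2 to 0.37 in heavy over monosome, PABPC4 to 0.40 and PAIP2B to 0.95 (called higher) in light over monosome, and the MRL of PAIP2 minus PAIP2B to -0.10. Signs also changed for values not called with all libraries, and the cause was not tested. In heavy over monosome these were PABPN1 (-0.259 to 0.503 with a replicate left out) and PAIP1 (-0.129 to 0.659, called at the upper value). In heavy over light they were PABPC4 (-0.236 to 0.576), PABPN1 (-1.02 to 0.0130) and PAIP1 (0.0933 without replicate 1, -0.402 without light polysome library 2). For MRL they were PABPN1 centred on the mean gene (0.0479), with no filter (0.00203) and with a replicate left out (-0.121 to 0.0898), and PAIP1 with a replicate left out (-0.0576 to 0.091). As the share in polysomes, PABPN1 lay 6.23 percentage points above the median gene. PAIP2, called lower in MRL, lay 6.82 points above it on that measure, and neither was called there. Differences in MRL between members ran from -1.26 to -0.78 for PABPC1 minus PABPC4, from 0.33 to 0.89 for PAIP1 minus PAIP2 and from 0.09 to 0.28 for PAIP2 minus PAIP2B with a replicate left out. Counting error was not set against the spread between gradients. PAIP2B, with as few as 166 reads in a library, is the least deeply read of the 6.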
